A study of Mus musculus with 6 samples.

Results

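The genes described here encode the T cell receptor complex and the proteins that pass on its signal: the CD3 chains (Cd3e, Cd3d, Cd3g), the zeta chain (Cd247), the coreceptors (Cd4, Cd8a), the kinases Lck and Zap70, and the inhibitory surface receptor CD5 (Cd5). Members are all probe sets to which the array annotation gives exactly 1 gene symbol, where that symbol is in this list. This gave 18 of 45037 probe sets, for 8 of the 9 genes; no probe set carries the symbol Lck in the annotation used here, so Lck was not analysed here. Cd8a has 5 such probe sets, Cd247 has 4, Zap70 has 3, Cd4 has 2, and Cd3e, Cd3d, Cd3g and Cd5 have 1 each.

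The study set basal marrow expression of adult female F1 mice of a pair of crosses side by side, with no treatment named in the labels and an FVB/NJ parent in common. The first cross was (AKR/J x FVB/NJ)F1, here AKR F1, and the second (DBA/2J x FVB/NJ)F1, here DBA F1, with 3 arrays each. Every animal was killed by cervical dislocation under Avertin anaesthesia, and the marrow was snap frozen. The labels do not say whether an array holds 1 animal or a pool, so p-values measure the spread between these arrays, whose number limits the precision of every value. Levels are log2 values, and a positive difference means a higher level in AKR F1.

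In a mature T cell the receptor's antigen-binding chains have no signalling tail of their own. They depend on CD3 epsilon, delta, gamma and the zeta chain, whose cytoplasmic tyrosine motifs are phosphorylated by LCK, a kinase carried by the CD4 or CD8 coreceptor, and then bind the kinase ZAP-70. Marrow is chiefly a myeloid, erythroid and B lymphoid organ, and its T cells are mostly recirculating cells that matured in the thymus. Some of these transcripts are also made outside T cells: the zeta chain and ZAP-70 in natural killer cells, CD4 and CD8 alpha in subsets of dendritic cells, and CD5 in some B cells.

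The 3 CD3 genes are neighbours on chromosome 9, in the order Cd3g, Cd3d, Cd3e, and are read here through 1 probe set each. Only Cd3e passed the test between the crosses. The start regions of all 3 are shown, from RefSeq on GRCm38.p6, covering 250 bases before and 50 after a transcript start. They are reference sequence, the same for both crosses, and cannot show a difference between the crosses. Capitals mark 5 motifs found on either strand: the E box CAGNTG, the ETS core AGGAAG, the GATA motif AGATAA, the TCF/LEF motif CTTTGA and the RUNX core ACCACA. No marked matches overlap each other.
Cd3e, chr9:45009562-45009861, minus strand: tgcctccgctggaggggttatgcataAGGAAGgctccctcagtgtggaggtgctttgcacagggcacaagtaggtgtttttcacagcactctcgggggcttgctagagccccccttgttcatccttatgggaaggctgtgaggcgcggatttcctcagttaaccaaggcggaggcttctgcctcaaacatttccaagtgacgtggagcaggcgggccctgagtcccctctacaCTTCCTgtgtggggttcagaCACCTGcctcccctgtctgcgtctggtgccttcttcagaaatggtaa
Cd3d, chr9:44981536-44981835, plus strand: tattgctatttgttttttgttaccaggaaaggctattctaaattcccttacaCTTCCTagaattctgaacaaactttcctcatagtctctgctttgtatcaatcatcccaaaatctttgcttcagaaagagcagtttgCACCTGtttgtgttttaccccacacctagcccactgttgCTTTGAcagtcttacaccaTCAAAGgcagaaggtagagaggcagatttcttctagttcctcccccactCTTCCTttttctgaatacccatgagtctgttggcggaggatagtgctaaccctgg
Cd3g, chr9:44980382-44980681, minus strand: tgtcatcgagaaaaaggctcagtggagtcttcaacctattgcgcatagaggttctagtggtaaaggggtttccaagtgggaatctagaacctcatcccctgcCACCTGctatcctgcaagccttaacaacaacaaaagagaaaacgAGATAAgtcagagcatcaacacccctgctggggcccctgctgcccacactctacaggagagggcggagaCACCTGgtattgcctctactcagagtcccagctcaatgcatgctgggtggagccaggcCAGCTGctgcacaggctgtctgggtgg

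The Cd3e window holds 1 E box and 2 ETS cores. The Cd3d window holds 1 E box, 2 ETS cores and 2 TCF/LEF motifs. Cd3g has 3 E boxes, 1 GATA motif and no ETS core in this window. No RUNX core and no TATAAA were found in any of these 3 windows. Such letters are common: among 32851 windows of the same length in the table, 51.4% hold the E box, 35.4% the ETS core, 16.0% the TCF/LEF motif, 11.2% the GATA motif, 16.8% the RUNX core and 13.6% TATAAA. In all, 11 windows of 8 member genes were in the table, and a match describes the letters only.

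Across the 18 probe sets, limma's test (adjusted p under 0.05 over all probe sets) called 3, each with the higher level in AKR F1, and left 15 uncalled. They read Cd3e, Cd4 and Zap70. For comparison, 12.3% of all probe sets passed in either direction, 5.57% as higher and 6.73% as lower in AKR F1. The 3 arrays of AKR F1 all lay above those of DBA F1 in 6 of the 18, against 18.1% of all probe sets, and the reverse was seen in 0; groups stood apart in either direction in 33.0% of all probe sets. The differences ran from -0.08 to 0.56 with a median of 0.16, and 16 of 18 were above 0, where all probe sets had a median of 0.03 and 56.6% above 0. Read by 1 probe set a gene, the brightest over all 6 arrays, all 8 measured genes had a difference above 0, where 61.1% of all genes did, with a median of 0.24 against 0.06 for all genes. Of these 8, 2 passed (Cd3e and Cd4), where 15.2% of 18193 genes did, 9.20% as higher and 6.04% as lower in AKR F1. The AKR F1 arrays lay above in 4 of the 8, against 23.0% of all genes, and 36.7% of all genes stood apart in either direction.

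The level of a probe set bears on whether it can pass. Of the 18, 10 lay below the median of every array, and 2 of these, both of Cd247, lay below the lower quartile of every array. Among all probe sets 21.1% of those above the median level passed, against 3.49% of those at or below it. Of the 7 members above that level 3 passed as higher, against 9.81% of all probe sets above it. A probe set's level here is its mean over all 6 arrays. Among the 3, Zap70 1440178_x_at lay below the median of each DBA F1 array and above that of each AKR F1 array. Its place above the level therefore rests on its AKR F1 values, and the comparison is a description only. Marrow is a mixture, so fewer cells of a type and less RNA per cell cannot be told apart for any gene named here.

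**Figure D1:**
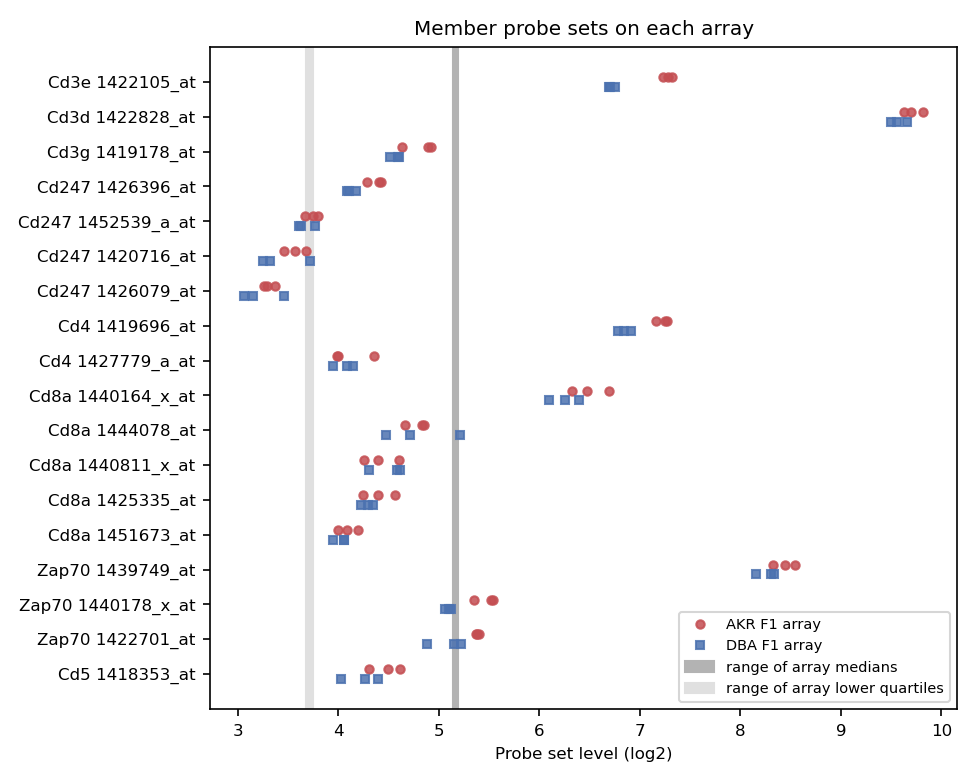
Level of each of the 18 probe sets (log2, horizontal axis) on each array, with circles for the 3 AKR F1 arrays and squares for the 3 DBA F1 arrays. Grey bands give the range of the arrays' medians and lower quartiles; for Cd3e the AKR F1 arrays, from 7.23 to 7.32, lie clear of the DBA F1 arrays, from 6.70 to 6.75, while most dim probe sets overlap.

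Cd3e encodes CD3 epsilon, the chain that pairs with both delta and gamma and is needed to assemble the receptor. Its probe set (1422105_at) read 7.32, 7.28 and 7.23 in AKR F1, against 6.75, 6.70 and 6.71 in DBA F1, where values are given in the order of replicates 1, 2 and 3. The groups did not overlap, and the gap between them was many times the spread within either. The means were 7.28 ± 0.04 and 6.72 ± 0.03 (SD, n = 3 each), a difference of 0.56 (SE 0.08, 95% interval 0.37 to 0.75) or 1.47-fold, with adjusted p = 0.0072 in limma. The call held in all 6 fits that left out 1 array, with adjusted p from 0.013 to 0.035 in limma.

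Cd3d encodes CD3 delta, which forms a dimer with epsilon. It read 9.82, 9.70 and 9.63 in AKR F1 and 9.66, 9.50 and 9.56 in DBA F1. The groups overlapped, since DBA F1 replicate 1 lay above AKR F1 replicate 3. The difference was 0.14 (95% interval -0.07 to 0.36, adjusted p = 0.385 in limma), so a rise of up to 0.36 is within the interval.

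Cd3g encodes CD3 gamma, the chain of the other epsilon dimer. It read 4.89, 4.92 and 4.63 in AKR F1 and 4.61, 4.52 and 4.59 in DBA F1, all below the array medians. AKR F1 replicate 3 lay close to DBA F1 replicate 1, and the groups did not overlap. The difference of 0.24 (95% interval 0.0011 to 0.48) had adjusted p = 0.18 in limma and did not pass.

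Whether Cd3e differed by more than its neighbours was read within arrays, in a comparison chosen after the values were seen. Cd3e minus Cd3d was -2.44 ± 0.06 in AKR F1, against -2.85 ± 0.05 for DBA F1 (SD, n = 3 each), so it was 0.42 higher in AKR F1, and Cd3e minus Cd3g was 0.32 higher. The groups did not overlap in either case. The exact two-sided permutation test gave p = 0.1 for each, which is the smallest that 3 against 3 arrays can give. Cd3g lay below the median of every array, and whether its low level lessened its difference was not tested.

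Cd247 encodes the zeta chain, which carries more tyrosine motifs than any CD3 chain. Its brightest probe set (1426396_at) read 4.42, 4.29 and 4.41 in AKR F1 and 4.09, 4.18 and 4.10 in DBA F1. The groups did not overlap, and the difference of 0.25 (95% interval 0.05 to 0.45) did not pass (adjusted p = 0.11 in limma). The other 3 probe sets differed by 0.07, 0.08 and 0.14, and their groups overlapped. All 4 lay below the median of every array.

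Cd4 encodes the coreceptor of T cells that recognise MHC class II. Its brighter probe set (1419696_at) read 7.27, 7.25 and 7.16 in AKR F1 and 6.91, 6.84 and 6.78 in DBA F1. Every AKR F1 array was above every DBA F1 array. The means were 7.22 ± 0.06 and 6.84 ± 0.06 (SD, n = 3 each), a difference of 0.38 (SE 0.09, 95% interval 0.18 to 0.58) or 1.30-fold, with adjusted p = 0.027 in limma.

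The Cd4 call was narrow. Among the 6 fits without an array it held in 1, that without DBA F1 replicate 1 (adjusted p = 0.035 in limma), while the other 5 gave adjusted p from 0.059 to 0.098 in limma and differences from 0.35 to 0.42. The second probe set of Cd4 (1427779_a_at), below the median of every array, read 4.35, 3.998 and 3.99 against 3.94, 4.08 and 4.15. Its groups overlapped, with AKR F1 replicate 1 alone above the rest, and it differed by 0.05 (95% interval -0.23 to 0.34).

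Cd8a encodes the alpha chain of the coreceptor for MHC class I. None of its 5 probe sets passed. The brightest (1440164_x_at) read 6.47, 6.70 and 6.33 in AKR F1 and 6.09, 6.25 and 6.39 in DBA F1. DBA F1 replicate 3 lay above AKR F1 replicate 3, and the difference of 0.25 (95% interval -0.03 to 0.54) had adjusted p = 0.24 in limma. Its suffix marks a set with probes that can bind other sequences. The other 4 differed by -0.02, -0.08, 0.11 and 0.07, and the groups overlapped in each. In 1444078_at the spread came from DBA F1, at 4.47, 4.71 and 5.21.

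The balance of the coreceptor transcripts was compared as Cd4 minus Cd8a within each array, from the brightest probe set of each. For Cd8a this was the set whose probes can bind other sequences, so the balance may not read Cd8a alone. Cd4 minus Cd8a was 0.79, 0.55 and 0.83 in AKR F1 and 0.81, 0.59 and 0.39 in DBA F1. The groups overlapped widely, with DBA F1 replicate 1 among the highest. The difference of 0.13 was not separable from the spread between arrays (exact two-sided permutation test, p = 0.6, where 0.1 is the smallest possible), so these data do not show the coreceptors to differ unequally, nor that they differ alike.

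Zap70 encodes the kinase that binds the phosphorylated chains and passes the signal to the adaptors. The set 1440178_x_at read 5.35, 5.54 and 5.52 in AKR F1 and 5.12, 5.10 and 5.06 in DBA F1. The groups did not overlap. The difference was 0.38 (SE 0.09, 95% interval 0.17 to 0.59) or 1.30-fold, with adjusted p = 0.033 in limma, and among the 6 fits without an array it held in 1, that without AKR F1 replicate 1, with adjusted p up to 0.12 in the others. This set has the suffix of probes that can bind other sequences.

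The set 1422701_at, the only Zap70 set to which the annotation gives a RefSeq accession, read 5.37, 5.39 and 5.38 in AKR F1 and 5.22, 5.15 and 4.88 in DBA F1. These groups did not overlap either, and the difference of 0.30 (95% interval 0.05 to 0.54) did not pass (adjusted p = 0.11 in limma). The brightest set, 1439749_at, for which the annotation gives no accession, read 8.54, 8.44 and 8.33 against 8.30, 8.15 and 8.33, with overlapping groups and a difference of 0.17 (95% interval -0.05 to 0.40). The 3 intervals share the range from 0.17 to 0.40.

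Cd5 encodes a receptor that dampens signalling through the T cell receptor. It read 4.50, 4.30 and 4.61 in AKR F1 and 4.40, 4.03 and 4.26 in DBA F1, all below the array medians. DBA F1 replicate 1 lay above AKR F1 replicate 2. The difference of 0.24 (95% interval -0.05 to 0.53) did not pass (adjusted p = 0.27 in limma).

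**Figure D2:**
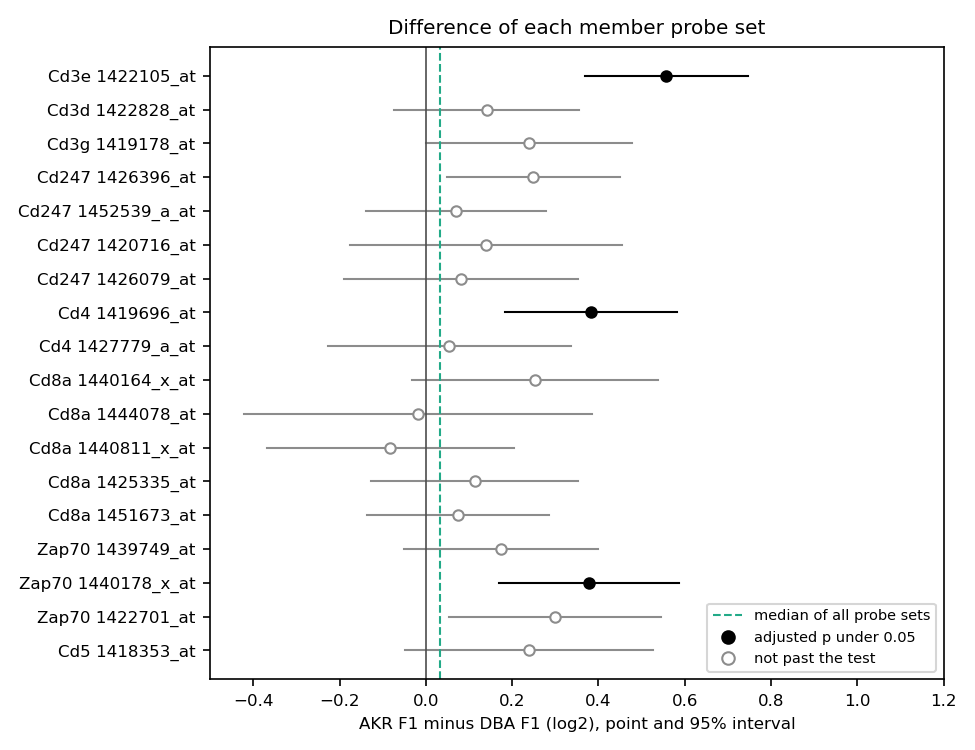
Difference AKR F1 minus DBA F1 (log2, horizontal axis) of each of the 18 probe sets with its 95% interval from limma's fit of all probe sets; filled points passed the test. Cd3e at 0.56, Cd4 at 0.38 and Zap70 at 0.38 are filled, and the dashed line is the median of all probe sets, 0.03.

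Sequence differences between the strains that fall within a probe's target were not examined. The differences of Cd3e, which has an only probe set, and of Cd4, whose dimmer set did not show it, are therefore uncertain as differences in transcript level. The 3 sets of Zap70 all had a higher mean in AKR F1, but only 1 of them passed, whose probes can bind other sequences. The Zap70 difference is uncertain in the same way.

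Downstream of these genes the signal runs through adaptors, lipid and protein kinases and phosphatases to NFAT, NF-kappa B and Ras. In a list of 40 such genes 38 were measured by gene symbol; the test called 3 as higher in AKR F1 and 4 as lower, and 31 stayed uncalled. The share that passed, 18.4%, is near the 15.2% of all genes, and the median difference was 0.05 against 0.06. Many of these genes act in other blood cells too.

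The 3 that were higher were adaptors and a kinase. Grb2, which links receptors to Ras, had means of 9.69 ± 0.07 for AKR F1 and 8.97 ± 0.06 for DBA F1 (SD, n = 3 each) and was 0.72 higher (adjusted p = 0.0038 in limma) which every one of the 6 fits without an array also called. Csk, which phosphorylates the inhibitory site of Src family kinases such as LCK, was higher by 0.60 (adjusted p = 0.021 in limma). Grap2, the adaptor GADS, was higher by 0.57 (adjusted p = 0.014 in limma).

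The 4 lower genes lay in different branches. Malt1, of the complex that leads to NF-kappa B, had means of 7.20 ± 0.22 and 7.90 ± 0.05 and differed by -0.71 (adjusted p = 0.010 in limma). Tespa1, needed in thymocyte signalling, differed by -0.90 (adjusted p = 0.029 in limma), with the DBA F1 arrays spread over 5.68, 6.35 and 6.56. Pag1, a membrane anchor of CSK, differed by -0.44, and the adaptor gene Nck1 by -0.35 (adjusted p = 0.025 and 0.044 in limma). Other probe sets of these genes did not always follow. Those of Pag1 differed by -0.06 to 0.03. Those of Nck1 differed by -0.03 and 0.16, and its called set had adjusted p = 0.053 in limma's fit of all probe sets. A Tespa1 set differed by 0.07 and another by -0.60, and the second Grb2 set by 0.26, none of which passed. In Grap2 and Malt1 a second set passed in the same direction (0.51 and -1.06). Of the adaptors at the centre of the pathway, Lat differed by 0.24 and Lcp2, which encodes SLP-76, by -0.04, and neither passed. The count of 7 became 1 without AKR F1 replicate 2, 2 without AKR F1 replicate 3 and 4 without DBA F1 replicate 2.

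**Figure D3:**
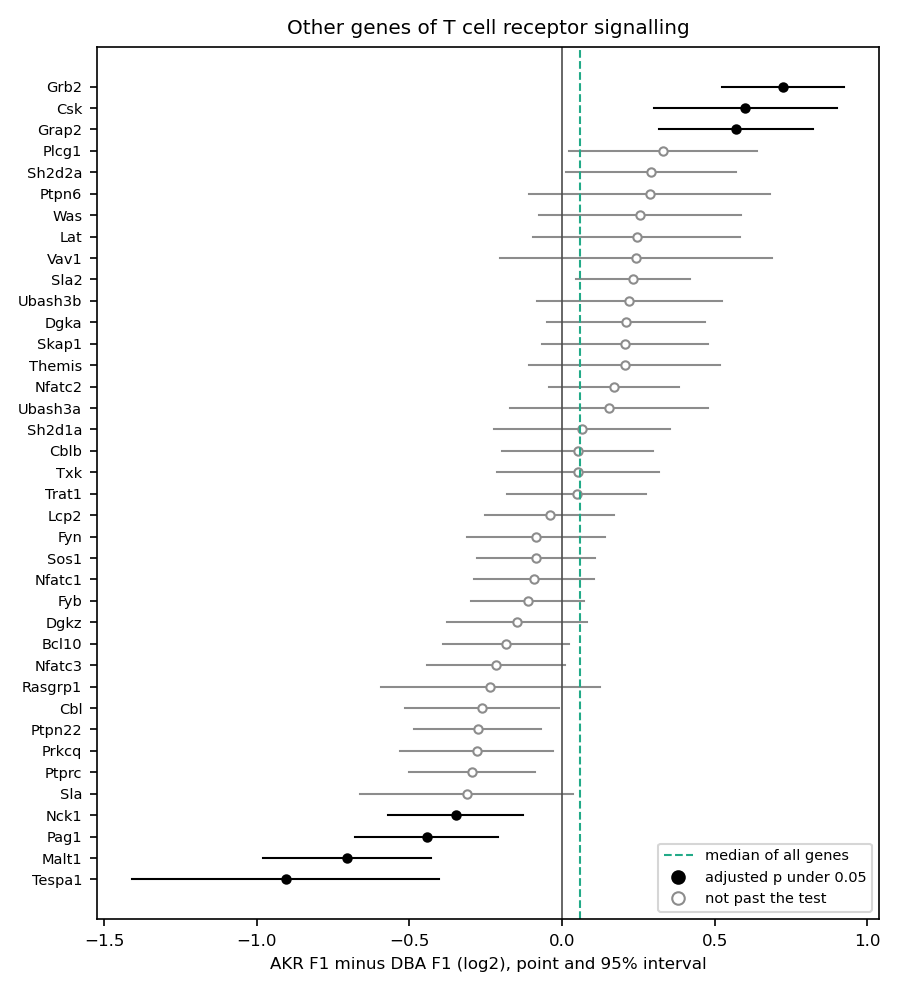
Difference AKR F1 minus DBA F1 (log2, horizontal axis) of the 38 measured pathway genes, each from its brightest probe set, with the 95% interval from limma's fit of all genes. Filled points passed the test, from Grb2 at 0.72 to Tespa1 at -0.90, and the differences lie on both sides of the median of all genes (dashed line).

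The receptor's own chains could hardly be read. Of 26 other surface genes of T cells 19 were measured, among them Tcra, which lay below the lower quartile of every array and differed by 0.24 without passing. In this list 1 was higher and 1 lower, 10.5% of the 19 against 15.2% of all genes. Cd7 was higher by 0.55 (7.30 ± 0.02 against 6.75 ± 0.15, adjusted p = 0.011 in limma). Btla, an inhibitory receptor of T and B cells, differed by -0.46 (8.61 ± 0.08 against 9.07 ± 0.13, adjusted p = 0.020 in limma). Among markers that define T cells, Thy1 differed by 0.32, Cd2 by -0.05 and Bcl11b by 0.13, and none of these passed. Of 12 measured transcription factors of the lineage 1 passed, or 8.33%, below the 15.2% of all genes. This was Runx3, which acts in CD8 T cells and was higher by 0.56 (adjusted p = 0.021 in limma). Its other probe set differed by 0.02.

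Genes of other marrow cells were also read as lists. The natural killer, dendritic and B cell lists are of cells that can make some of the member transcripts. At the brightest probe set 38.5% of the natural killer, 9.09% of the dendritic, 20.0% of the B cell and 45.5% of the macrophage and monocyte genes passed. The granulocyte and red cell list had 30.0%. Of all genes 15.2% passed, 9.20% as higher and 6.04% as lower in AKR F1. Of 13 measured natural killer cell genes, Nkg7 (0.74), Tyrobp (0.54) and Ctsw (0.33) were higher and the granzyme genes Gzma (-0.83) and Gzmb (-0.42) were lower. The defining receptor gene Ncr1 differed by -0.09 and did not pass. The summed linear signal of this list was 7554 to 7788 in AKR F1 and 4730 to 6540 in DBA F1. Tyrobp, also a myeloid gene, made up 73.9% to 80.2% of it on the 6 arrays; without it the sums were 1508 to 1593 against 1234 to 1385. The median difference of the list was 0.05. Of 11 dendritic cell genes 1 was higher, Bst2 (0.74), and the summed signal overlapped (2468 to 2852 against 1892 to 2953). Of 15 B cell genes 1 was higher, Cd79a (1.32), and 2 were lower, Ms4a1 (-0.99) and Ebf1 (-0.86), with overlapping sums (8344 to 12810 against 9085 to 10007). Of 11 macrophage and monocyte genes 5 were higher and none lower at the brightest probe set. The higher ones were C1qc (0.95), Marco (0.88), C1qb (0.75), C1qa (0.65) and Mertk (0.40). The other 6 did not pass: Cd68 (0.41), Cd14 (0.18), Csf1r (0.097), Adgre1 (0.02), Vcam1 (-0.16) and Ccr2 (-0.495). The 2 dimmer sets of Vcam1 did pass, both with the lower mean in AKR F1. Of the dimmer Ccr2 sets, which differed by -1.74 to 0.25, 1 passed. The sums of this list were 10745 to 12088 against 9942 to 10181. The log scale has no 0, and of the natural killer, dendritic, B cell and macrophage lists only Klra8 of the natural killer list lay below the lower quartile of every array. Of 10 measured genes of granulocyte and red cell precursors 3 were higher, Elane (0.82), Epor (0.66) and Alas2 (0.35), and 0 lower. The list median was 0.25, close to the 0.24 of the member genes. Among the 6 fits without an array the call of Epor held in 3, Elane in 2 and Alas2 in 0. Of the calls in the other 4 lists, Gzma, Bst2, Ms4a1 and Ebf1 held in all 6 and Nkg7, C1qc and Marco in 5. Cd79a held in 3, Gzmb and C1qb in 2, and Tyrobp, Ctsw, C1qa and Mertk in 1. The part of these cells in the differences of Cd3e, Cd4 and Zap70 was not tested.

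**Figure D4:**
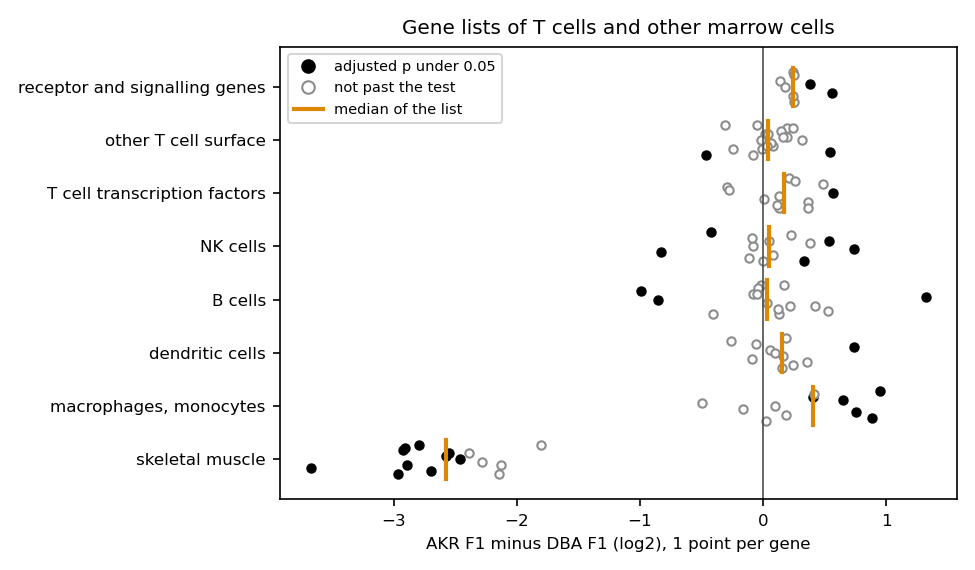
Difference AKR F1 minus DBA F1 (log2, horizontal axis), 1 point per gene, for the receptor and signalling genes and for 7 lists of T cell and other marker genes; filled points passed the test and bars give each list's median. The 8 member genes lie between 0.14 and 0.56, and skeletal muscle lies between -3.67 and -1.80. The T cell surface, transcription factor, natural killer, B cell, dendritic and macrophage lists spread to both sides of 0.

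The arrays themselves differed between the crosses in 3 measures, which therefore move with each difference that separates the crosses. The skeletal muscle list had 10 of 15 genes lower in AKR F1 and 0 higher, where 6.04% of all genes were lower. Its summed linear signal was 2341 to 5762 against 8264 to 59288. The mean 3' minus 5' difference of 6 control transcripts was 1.25 to 2.03 in AKR F1 and 1.03 to 1.23 in DBA F1. Most of these 6 were added bacterial transcripts and the rest mouse, so the index does not measure the integrity of the marrow RNA alone. The 9 hybridization controls averaged 10.41 to 10.61 and 10.96 to 11.33. With the first of these, the second or the third as a covariate, Cd3e differed by 0.62, 0.58 and 0.45 (adjusted p = 0.15, 0.16 and 0.53 in limma) and no member probe set passed; over all probe sets 53, 112 and 5 still did. Cd4 differed by 0.47, 0.39 and 0.29 in these fits, and none passed. As markers of marrow, Elane (means 13.06 and 12.25) and Alas2 (13.27 and 12.93) were among the bright genes, both higher in AKR F1, while the probe set of the globin gene Hba-a1 lay below the median of every array (3.70 and 3.68).

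The genes whose pattern over the 6 arrays was most like that of Cd3e, by the root mean square difference of mean-centred log2 values among 9093 genes at or above the median level, were Ankrd24 (0.024), Ssc4d (0.026), Mydgf (0.032), Lrmda (0.039) and Btg2 (0.042). None of the 5 is in the T cell lists used here. Among the members Cd4 was closest (0.091), with 130 of these genes closer, followed by Cd247 (0.17) and Cd3g (0.17). This is a description of 6 arrays in which many genes separate the crosses.

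On chromosome 9, 2 of the 6 nearest measured genes on either side of the CD3 genes passed the gene test, against 15.2% of all genes in either direction and 9.20% as higher in AKR F1; with 6 genes this is a description. Scn2b, which encodes a sodium channel subunit, was higher in AKR F1 by 0.86 (adjusted p = 0.0061 in limma), and Kmt2a, which encodes a histone methyltransferase, by 0.48 (adjusted p = 0.040 in limma). Ube4a (-0.15), Atp5l (0.18), Mpzl2 (0.19) and Mpzl3 (-0.07) did not pass. Gene order is that of GRCm38.p6.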

How the data were processed

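The arrays are Affymetrix. The authors' deposited values are log2 levels of 45101 probe sets, with array upper quartiles from 7.34 to 7.43. The submitters' processing notes name MAS5 and RMA without role. Scan dates, detection calls and the genome build are not given in the sources used here. Tests leave out 64 control probe sets. The annotation gives 1 symbol to 34945 probe sets, several to 932 and none to 9160.

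Groups came from the sample titles. limma 3.58.1 (R 4.3.3) with empirical Bayes moderation was fitted to all 45037 probe sets and to the brightest probe set of 18193 genes. Tests were two-sided, with Benjamini-Hochberg adjustment over the whole table. On simulated data with few changed probe sets the test missed most changes of 1.5-fold, so an uncalled gene is not shown to be unchanged. Values of members come from the probe set fit and those of other genes from the gene fit. Single within-array differences were tested by exact permutation. The members and lists were chosen with earlier results of these data known. Named genes are all members, up to 10 called genes of each list or otherwise the 4 with the smallest p, the 5 most like Cd3e and the neighbours of the CD3 genes; Lat, Lcp2, Thy1, Cd2, Bcl11b, Tcra, Ncr1 and Klra8 fall outside this rule and were picked with their values known. Hba-a1, Cd68, Cd14, Csf1r, Adgre1, Ccr2 and Vcam1 were also picked so. The called muscle genes are given by list only. Alternatives were other normalizations, a level filter, variance and weight settings, covariates, thresholds, the replicate block, leaving out each array and averaging probe sets.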

Additional observations from a re-analysis of the deposited data

How the results depend on the processing

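The count of 3 member probe sets was 3 under quantile normalization, median centring, a filter at the median level, robust estimation with a variance trend, array weights and an adjusted p of 0.1 in limma, and 2 without sets whose suffix marks shared sequence. It was 1 at an adjusted p of 0.01, and 0 in the test against a 1.2-fold change and with each covariate. Leaving out each array gave 1 to 2: 1 without AKR F1 replicate 2 or 3 or DBA F1 replicate 2 or 3, which was Cd3e each time. The count of 2 member genes was 1 at an adjusted p of 0.01, 0 in the 1.2-fold test and with each covariate, and 1 to 2 leaving out each array (1 without AKR F1 replicate 1, 2 or 3 or DBA F1 replicate 2). Averaged over its probe sets Cd4 did not pass (0.22, adjusted p = 0.12 in limma), while Zap70 did. The pathway count of 7 was 1 at an adjusted p of 0.01, 1 in the 1.2-fold test, 0 with each covariate and 1 to 7 leaving out each array.

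The labels do not say whether arrays with the same replicate number are paired. Deviations of same-numbered arrays from their group means correlated over genes at 0.0058, -0.060 and 0.073, and those of other pairs at -0.16 to 0.13. With 3 arrays in each group these correlations cannot show whether a pairing exists. With the replicate block 2 member probe sets, 2 member genes and 6 pathway genes passed; Zap70 lost its call (adjusted p = 0.060 in limma) and the Cd4 minus Cd8a difference stayed 0.13.

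Signs turned only in probe sets that had not passed. With the hybridization controls as covariate these were Cd247 (-0.093, -0.029 and -0.040 in 1452539_a_at, 1420716_at and 1426079_at), Cd3d (-0.14), Cd3g (-0.00056), Cd4 1427779_a_at (-0.11), Cd5 (-0.16), Cd8a 1440811_x_at (0.22) and Zap70 1439749_at (-0.16). With the muscle list they were Cd247 1426079_at (-0.017), Cd4 1427779_a_at (-0.042) and Cd8a 1451673_at (-0.055), and with the 3' to 5' index Cd8a 1444078_at (0.12) and 1440811_x_at (0.016). Cd8a 1444078_at also turned with array weights (0.015), and without AKR F1 replicate 3 (0.04) or DBA F1 replicate 3 (0.19), with a range from -0.18 to 0.19 over all 6 such fits, and Cd4 1427779_a_at without AKR F1 replicate 1 (-0.065) or DBA F1 replicate 1 (-0.0026). The cause of these changes was not tested. No detection calls were used, so no floor can be set; 2 Cd247 probe sets lay below the lower quartile of every array, and 8 others, of Cd247, Cd3g, Cd4, Cd5 and Cd8a, below the median.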

Other observations

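Several T cell signalling genes differed at a probe set other than the brightest, which the gene counts above do not show; these were picked after the values were seen. Of 43 genes of the 3 T cell lists with more than 1 probe set, 10 (23.3%) passed only at a dimmer one in the fit of all probe sets, where 14.9% of the 9010 genes with several probe sets did; the difference between these shares was not tested. Nfatc3 and Nfatc1 encode NFAT factors, which carry the calcium signal of the receptor to the nucleus. In Nfatc3 the set 1452497_a_at averaged 6.395 for AKR F1 against 7.87 for DBA F1 (difference -1.48, adjusted p = 0.0076 in limma), while the brightest set differed by -0.22. In Nfatc1 the set 1425761_a_at was at 8.11 against 7.16 (difference 0.95, adjusted p = 0.0059 in limma), while the brightest differed by -0.09. Rasgrp1, which activates Ras below the receptor, differed by -0.94 at 1450143_at (adjusted p = 0.0079 in limma) and by -0.24 at its brightest. The set 1450143_at was dim, at 3.87 for AKR F1 against 4.81 for DBA F1, and lay below the median of every array. Each of these 3 sets also passed without any 1 of the 6 arrays.

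In Ubash3b, which encodes a phosphatase that dampens receptor signalling, 1436805_at differed by 0.85 (adjusted p = 0.013 in limma) and the brightest by 0.22. The interleukin 7 receptor gene Il7r, used by T cells and B cell precursors, differed by -1.05 at 1448576_at (adjusted p = 0.036 in limma) and by -0.31 at its brightest. The other genes of the 10 were Fyb, Sla, Ets1, Zbtb7b and Notch1, where the sign was the same at the brightest set and at the sets that passed. Whether these sets read different transcripts or strain variants under the probes was not analysed here.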
